A study of Danio rerio with 4 samples.

Results

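The MCM helicase genes and pcna were measured in sorted zebrafish retinal cells as 7 genes, among 8753 named genes, with 12 of the 21495 probes on the array. Members were the non-control probes whose name in the scanner files, or whose current RefSeq symbol, starts with mcm and a digit or is pcna. They were mcm3, mcm3ap, mcm3l, mcm4, mcm5, mcm7 and pcna, and 5 of these genes had 2 probes. No probe met the rule for mcm2, mcm6, mcm6l, mcm8, mcm9 or mcm10, so these were not analysed here as members.

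The comparison asks how transcript levels in retinal progenitors at 4 days after injury differ from those in Muller glia of uninjured retina. RNA was hybridised to 4 single-colour arrays. The control group was Muller glia sorted for GFP from uninjured retinas of gfap:gfp fish aged 7 months (n = 2). The progenitor group was sorted for GFP from tuba1a:gfp fish of line 1016, aged 7 months (replicate 1) and 8 months (replicate 2). Cells were taken 4 days after each quadrant of the eye was poked with a 30-gauge needle (n = 2). The gfap promoter drives GFP in glia, and the tuba1a promoter marks cells that switch it on after injury. Line, reporter and injury all differ between the groups and cannot be told apart. The labels call the samples duplicates without saying whether they came from separate fish, so the p-values rest on a spread between arrays that could be technical alone. All 4 arrays lay on 1 slide and shared 1 scan.

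Mcm2 to Mcm7 form the hexameric ring that is loaded onto replication origins in G1 and, joined by Cdc45 and the GINS complex, unwinds DNA ahead of the fork in S phase. PCNA is the sliding clamp that holds DNA polymerases on the template, and it also tethers repair and chromatin assembly factors. Both are standard markers of cells that are cycling or licensed to cycle. In the adult zebrafish retina, Muller glia re-enter the cell cycle after injury and give rise to the progenitors that replace lost neurons.

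Signals were read as processed intensity, a linear brightness. For tests they were converted to log2, and each array's 75th percentile on the log2 scale was then subtracted. A scaled log2 value of 0 is thus the 75th percentile signal of that array. That percentile was 4290 and 4464 for glia, 4816 and 4899 for progenitors. Between 71.7% and 82.0% of spots were well above background. Scaled signals correlated at 0.999 between the glia arrays and 0.998 between the progenitor arrays, across probes. Differences are progenitor minus glia in log2 units with the standard error from limma, and a call means an adjusted p below 0.05 over all 16596 probes tested. Of the member probes 11 were tested, each well above background on all 4 arrays, and only the mcm3l probe was left out.

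The helicase subunit genes mcm5, mcm4, mcm3 and mcm7 and the clamp gene pcna were higher in progenitors, and mcm3ap did not pass the test. Of the 11 probes tested, 9 were called higher and 0 lower; among all probes tested 27.2% were called higher and 38.3% lower. That split of all probes, 4511 higher and 6361 lower, became 3029 and 9724 with median scaling and 15477 and 340 with scaling to spike-in controls. The median difference of the 6 tested member genes was 2.63, against -0.11 for all 7081 genes tested. In 5 member probes the rise reached 8-fold, which 1.28% of all probes did. As genes, 4 of the 6 rose by at least 2-fold, against 7.74% of all genes tested. Both progenitor arrays stood above both glia arrays for 9 of the 11 probes, as for 34.9% of all probes. In bulk RNA of this kind, a larger share of cycling cells and more transcript per cell cannot be told apart.

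**Figure D1:**
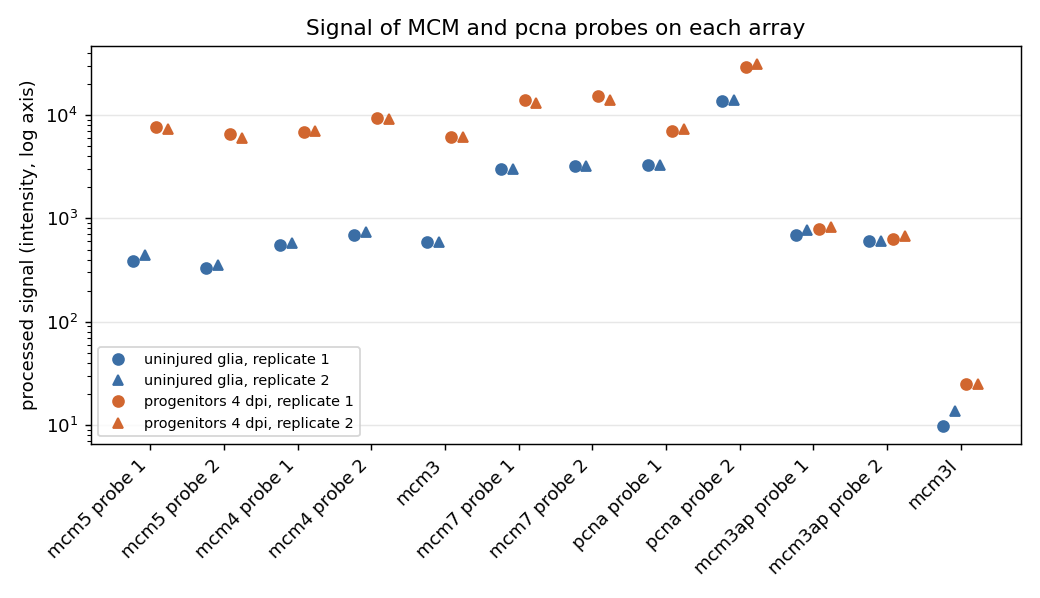
Processed signal (intensity, log axis) of each of the 12 MCM and pcna probes on each of the 4 arrays; blue is uninjured glia, orange is progenitors at 4 days after injury, and the marker shape gives the replicate. The mcm5, mcm4, mcm3, mcm7 and pcna probes are separate by group, with the narrowest of these gaps at pcna. The mcm3ap points of both groups lie close together, and mcm3l lies near the floor at signals of 9.88 to 25.2.

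Among the ring subunits, mcm5 had the largest difference. Mcm5 pairs with Mcm2 at the gate through which DNA enters the ring. Its brighter probe (danRer2 chromosome 3, 16087251 to 16087310, minus strand) read 391 and 441 in glia and 7722 and 7279 in progenitors. The groups did not overlap, and the replicates of each group lay close together. The scaled signal went from -3.40 ± 0.08 to 0.63 ± 0.08 (SD, n = 2), a 16.3-fold rise of 4.02 ± 0.07 (adjusted p = 7.28e-05). The other mcm5 probe (16087224 to 16087281) read 334 and 355 in glia and 6511 and 6040 in progenitors, a difference of 4.04 ± 0.06. Only 0.319% of tested probes had a difference as large as that of the brighter mcm5 probe.

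The mcm4 gene encodes a subunit with a long regulated tail that is a target of the Dbf4-dependent kinase in yeast and mammals. Its brighter probe (chromosome 3, 5517280 to 5517339, plus strand) read 695 and 743 in glia and 9278 and 9111 in progenitors. The groups were far apart relative to the gap between replicates. The mcm4 signal rose 11.5-fold, by 3.53 ± 0.05 (adjusted p = 5.62e-05). The second mcm4 probe (5517257 to 5517316) read 555 and 575 in glia and 6899 and 7048 in progenitors, and gave 3.48 ± 0.04. Both mcm4 probes were therefore in the top 1% of differences, with 0.687% and 0.723% of tested probes at or above them.

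The mcm3 gene encodes another ring subunit, which sits next to Mcm5. The single mcm3 probe (chromosome 20, 42267834 to 42267893, minus strand) read 596 in both glia samples, against 6170 and 6149 in progenitors. The mcm3 level was nearly the same in the replicates of each group. It rose 9.31-fold, by 3.22 ± 0.05 (adjusted p = 5.62e-05), and 0.994% of tested probes rose at least as much.

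The mcm7 gene, whose product pairs with Mcm4 in an active ATPase site of the ring, had a smaller difference. Its brighter probe (chromosome 9, 23018896 to 23018955, plus strand) read 3196 and 3208 in glia and 15228 and 14120 in progenitors. The other mcm7 probe (23018891 to 23018950) read 2975 and 2996 in glia and 13844 and 12947 in progenitors. Neither probe's groups overlapped. The brighter mcm7 probe rose 4.13-fold, by 2.04 ± 0.07 (adjusted p = 0.000206), and the other by 2.01 ± 0.06. With spike-in scaling the mcm7 difference was 3.17.

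The clamp gene pcna had a smaller difference than the helicase subunits. Its brighter probe (chromosome 10, 36046473 to 36047194, plus strand, a span of 722 bases) read 13657 and 14015 in glia and 29265 and 31187 in progenitors. A second pcna probe, with no position listed, read 3286 and 3289 in glia and 6978 and 7304 in progenitors. The groups did not overlap on either probe. The pcna rises were 1.97-fold (0.98 ± 0.05, adjusted p = 0.000515) and 1.96-fold (0.97 ± 0.05, adjusted p = 0.000523). At or above these 2 pcna differences lay 7.90% and 7.96% of all tested probes. With spike-in scaling the difference of the brighter pcna probe was 2.10, where the median of all genes moved from -0.11 to 1.01.

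The other members were mcm3ap and mcm3l. In mammals the mcm3ap gene encodes GANP, a scaffold for mRNA export that also binds Mcm3. The brighter mcm3ap probe read 697 and 777 in glia and 787 and 821 in progenitors. The mcm3ap groups are separate in raw signal by a narrow margin and overlap once scaled. Its difference was -0.02 ± 0.05 (adjusted p = 0.723, 95% interval -0.18 to 0.13), and the second probe gave -0.04 ± 0.05 (adjusted p = 0.529). Both mcm3ap probes are listed at one position (chromosome 9, 37489858 to 37489917, minus strand). Scaling decided the mcm3ap call. It was called lower with median scaling (-0.25, adjusted p = 0.0242), where the median of all genes was -0.335. It was called higher with spike-in scaling (1.099, adjusted p = 1.4e-05), where that median was 1.01.

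The mcm3l probe (chromosome Un, 46328238 to 46328297, minus strand) was not well above background on any array, which required every spot of the probe to pass. A single spot passed on glia replicate 2 (14.4) and on progenitor replicate 1 (26.2). The probe read 9.88 and 13.7 in glia and 25.2 and 25.2 in progenitors. No fold is given for mcm3l, since both groups were dim. In the RefSeq table mcm3l has the synonym MCM3m and mcm3 the synonym MCM3z; the probe was matched to mcm3l by its symbol alone.

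**Figure D2:**
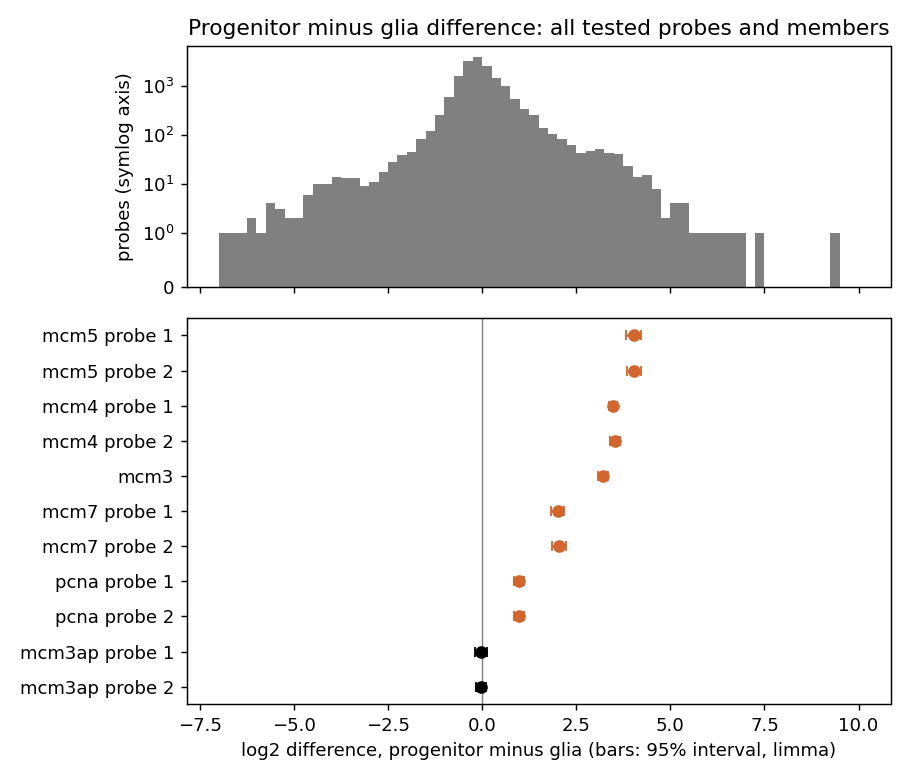
The upper panel counts all 16596 tested probes by their log2 difference (progenitor minus glia, symlog count axis), and the lower panel gives the 11 tested member probes with 95% intervals from limma (n = 2 arrays per group). Orange probes were called higher and black probes were not called; the mcm5 probes lie at 4.02 and 4.04, the pcna probes at 0.98 and 0.97 and the mcm3ap probes beside 0.

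The members ranked mcm5, mcm4, mcm3, mcm7, pcna and mcm3ap by their difference, and this order held in 15 of 15 alternative settings. Several of these settings could not alter the order. Median and spike-in scaling shift all genes alike, and the filters, the trend and the replicate block left the member differences unchanged. The 95% intervals of neighbours did not overlap: 3.83 to 4.22 for mcm5, 3.40 to 3.65 for mcm4 and 3.09 to 3.35 for mcm3. They were 1.86 to 2.23 for mcm7 and 0.84 to 1.11 for pcna. Each interval holds the spread between arrays for a single probe. How probes of different genes differ in their response to transcript level is not covered by it. Taking the log2 ratio of 2 genes within each array removes the scaling of that array. By this measure the difference of mcm5 exceeded that of mcm4 by 0.50 ± 0.05 and that of mcm4 exceeded mcm3 by 0.31 ± 0.05 (SE, n = 2 arrays per group). The gaps were larger further down, at 1.17 ± 0.05 from mcm3 to mcm7, 1.07 ± 0.10 from mcm7 to pcna and 1.00 ± 0.06 from pcna to mcm3ap. No p is given for these gaps.

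Probes of the same gene agreed closely, with differences between them of 0.05 or less. Agreement was not independent evidence for mcm4, mcm5 and mcm7, because their probe pairs overlap by 37, 31 and 55 bases of the genome. Replicate arrays differed by at most 0.13 in scaled log2 for any tested member probe, as seen for mcm5 in progenitors. Whether the probes lie in coding sequence or in a UTR was not analysed here.

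Some probes outside the rule carry descriptions that point to MCM proteins, and they were looked up after the member values were known. A pair of probes share a transcript identifier and are described as MCM6b and as an Mcm6-prov protein (chromosome 19, minus strand). The first of these (11700766 to 11701662) read 26.1 and 19.8 in glia and 341 and 372 in progenitors, a difference of 3.83 ± 0.17 (adjusted p = 0.000433). Its scaled glia values, -7.38 and -7.83, were near the lowest values well above background on those arrays (-8.09 and -8.47). The second (11691222 to 11691281) read 203 and 223 in glia and 3011 and 3230 in progenitors, a difference of 3.72 ± 0.06 (adjusted p = 5.74e-05). Another probe, described as similar to mouse MCM6 (chromosome 2, 50579695 to 50579754, plus strand), went the other way. It read 361 and 409 in glia and 255 and 307 in progenitors, a difference of -0.61 ± 0.11 (adjusted p = 0.0109). The probes described as MCM6-like thus moved in both directions, with the brightest in progenitors rising.

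A probe described as similar to human MCM2 was dim, at 35.1 and 39.4 in glia and 53.2 and 55.6 in progenitors, with a difference of 0.39 ± 0.06 (adjusted p = 0.00622). A probe described only as having an MCM domain read 32.7 and 38.4 in glia and 29.4 and 30.2 in progenitors, and stood at -0.40 ± 0.07 (adjusted p = 0.0121). That probe was well above background on only 1 of the progenitor arrays. An expressed tag similar to human PCNA, whose file name is an older name of pcna, read 11.1 to 20.0 over the arrays and was not tested. It maps to the minus strand (chromosome 10, 36045021 to 36046419), beside the plus-strand pcna probe.

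Other genes of DNA replication mostly moved with the helicase and clamp. They were taken from lists by role, written with earlier results of these data known. Of 39 such genes with a probe 37 were tested, and 32 were called higher, 2 lower and 3 in neither direction, while 27.6% of all genes tested were called higher and 40.3% lower. Their median difference was 0.99, against -0.11 over all genes. The counts by role that follow stand beside 27.6% of all genes called higher and 40.3% called lower. With normexp background correction only 20 of these 37 replication genes were called higher. Calls then fell over the whole array, from 4511 to 1584 probes higher and from 6361 to 2328 lower.

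Origin licensing genes load the ring onto DNA. The test called 5 of 6 higher and 0 lower, and their median difference was 1.496. The origin recognition subunit gene orc6 read 205 and 183 in glia and 1872 and 1798 in progenitors, a rise of 3.09 ± 0.09 (adjusted p = 0.00019). The large subunit gene orc1 rose by 2.11 ± 0.05 (1.74 at the lowest of its 3 tested probes), a call lost with normexp (1.33). The rise of orc3 was 1.89 ± 0.05. The orc5 difference was -0.07 ± 0.07 and was not called. It was called lower with median scaling (-0.29) and higher with spike-in scaling (1.06), where all genes had medians of -0.335 and 1.01. Geminin, the inhibitor of relicensing, is encoded by gmnn, which read 286 and 316 in glia and 743 and 691 in progenitors; like mcmbp, which encodes an MCM binding protein, it was chosen after its value was seen. The gmnn signal rose by 1.103 ± 0.07, lost with normexp (0.67), and mcmbp by 0.94 ± 0.06.

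Genes that activate the helicase or travel with it at the fork were all called higher, 6 of 6 tested, with a median of 2.32. The fork scaffold gene wdhd1 read 159 and 152 in glia and 1933 and 2009 in progenitors, a rise of 3.51 ± 0.06 (adjusted p = 7.21e-05). The kinase gene cdc7, whose product phosphorylates the MCM ring, rose by 3.18 ± 0.06, but its other probe gave 1.72 and the call was lost with normexp (1.92). The initiation factor gene ticrr rose by 2.33 ± 0.04. Of the partners that complete the active helicase, chosen after their values were seen, cdc45 rose by 2.32 ± 0.16 and gins3 by 2.02 ± 0.09. The cdc45 call was lost with normexp (1.15), as was that of the fork protection gene tipin (0.46).

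Polymerase and primase genes were called higher in 7 of 7 cases with smaller differences, at a median of 0.71. The primase subunit genes prim1 and prim2 rose by 1.65 ± 0.04 and 1.66 ± 0.05 (adjusted p = 0.000136 and 0.000206). The polymerase alpha accessory gene pola2 read 1089 in both glia samples and 2344 and 2454 in progenitors, a rise of 0.99 ± 0.05. The smallest difference was that of pole2, at 0.23. The pole2 call was lost with normexp (0.19), median scaling (0.0097) and quantile normalization (0.15), with dim probes kept (0.23), without glia replicate 1 (0.17) and without either progenitor array (0.26 and 0.21). That of pole3 was lost with median scaling (0.12).

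Clamp loader genes, whose products open PCNA and place it on DNA, were called higher in 4 of 4 cases, with a median of 0.56. The alternative loader gene dscc1 rose by 2.61 ± 0.07 (adjusted p = 0.000148), from 185 and 215 in glia to 1347 and 1360 in progenitors. The canonical loader gene rfc3 rose by 0.61 ± 0.05. The unloader gene atad5b rose by 0.51 ± 0.05 but stood at -0.10 with normexp.

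Single-strand binding genes were called higher in 3 of 3 cases, rpa2 by 1.85 ± 0.06, rpa3 by 1.45 ± 0.06 and rpa1 by 0.17 ± 0.04. The rpa1 call did not hold when any 1 of the 4 arrays was left out (0.14 to 0.19), when dim probes were kept, or under normexp, and its sign turned with median scaling (-0.05). It was also lost with the deposited value table (0.16) and with a replicate block, whose adjusted p was 0.0722. Of the Okazaki fragment genes, the flap nuclease gene fen1 rose by 0.75 ± 0.06 and rnaseh2b was not called (0.13 ± 0.05). The rnaseh2b value turned to -0.09 with median scaling and to a call at 1.25 with spike-in scaling. It was also called higher with quantile normalization (0.17), an intensity trend (0.13) and spike-in scaling by probe type (1.18).

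Genes whose products bind or are tethered by PCNA were mixed: the test called 6 of 9 higher and 2 lower, and their median difference was 0.76. The chromatin assembly gene chaf1b rose by 4.00 ± 0.06 (adjusted p = 5.74e-05), its other probe lower at 2.80. It read 46.6 and 44.7 in glia and 789 and 831 in progenitors. The mismatch repair nuclease gene exo1 read 17.6 and 23.0 in glia, well above background on 1 of the glia arrays, and 483 and 506 in progenitors (4.50 ± 0.15). The exo1 gene was tested only because it was bright in progenitors, and its difference rests on a glia level at the edge of detection. When all 4 arrays had to be well above background, exo1 dropped out, leaving 36 replication genes of which 31 were called higher. The calls of chaf1b, exo1, uhrf1 and rad18 were lost with normexp (2.18, 1.70, 0.04 and 0.50). The uracil glycosylase gene unga rose by 1.72 ± 0.05, with 1.13 at the lowest of its 3 tested probes.

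The deubiquitinase gene usp1, whose product removes ubiquitin from PCNA, read 13583 and 14071 in glia and 11922 and 11997 in progenitors. It fell by 0.36 ± 0.04 (adjusted p = 0.00358), and turned to 0.76 with spike-in scaling. The mismatch recognition gene msh6 read 18829 and 14288 in glia and 11609 and 12081 in progenitors, a difference of -0.62 ± 0.17 (adjusted p = 0.0353). That call was lost with normexp, with quantile normalization, without the filter on dim probes and without either progenitor array (-0.60 and -0.64), and turned to 0.50 with spike-in scaling.

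**Figure D3:**
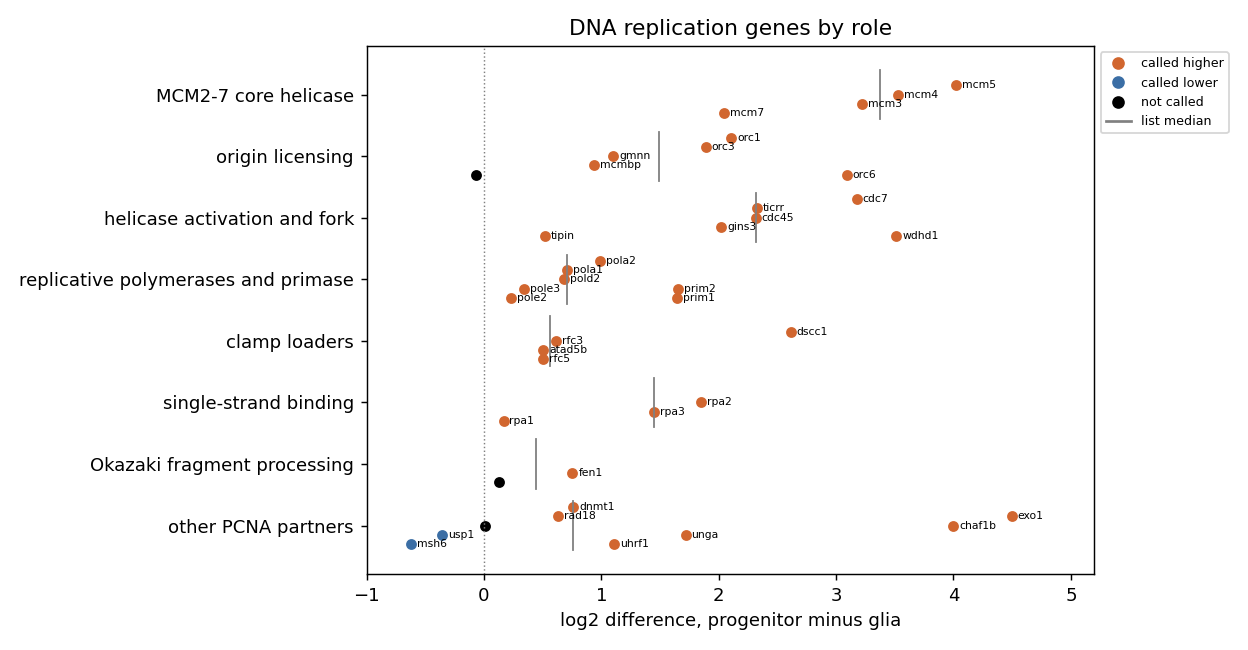
Log2 difference (progenitor minus glia) of each tested replication gene, grouped by role; orange genes were called higher, blue lower and black neither, and the grey bar is the list median. Genes that passed the test are named. The ring subunits have a median of 3.37, the helicase activation genes 2.32 and the clamp loaders 0.56, while usp1 and msh6 lie below 0.

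Among the named genes outside these lists with the pattern closest to the mean of the tested ring subunits were drc2, socs3b, mfap4.1 and kifc1. In other vertebrates drc2 acts in the dynein regulatory complex of motile cilia, socs3b in feedback on cytokine signalling and kifc1 as a spindle motor. Likeness was the Euclidean distance over the 4 arrays between values centred on each gene's own mean. Their distances were 0.07, 0.07, 0.09 and 0.10 in log2 units, against a median of 3.31 over 6134 candidate genes. On the scaled log2 axis drc2 stood at -7.44 and -7.53 in glia and -4.26 and -4.34 in progenitors. Its glia values were near the lowest values well above background on those arrays (-8.09 and -8.47). With 2 groups of 2 arrays this measure reads little more than the size of the difference. The microglia and leukocyte list used below names mfap4 but not mfap4.1, so mfap4.1 (3.28 ± 0.05) was not counted there.

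Marker genes of the labelled cells were present. The marker counts that follow stand beside 27.6% of all genes called higher and 40.3% called lower. Of 13 tested Muller glia genes 10 were higher in progenitors and 1 lower, with a summed signal of 924310 to 981320 in glia and 1467500 to 1528000 in progenitors. Among them gfap rose by 0.69 ± 0.05, with its 4 tested probes ranging from 0.24 to 0.76. The glutamine synthetase gene glula was bright in both groups, at 276450 to 297260. Marker lists of other cells moved in both directions. Microglia and leukocyte genes, from cells that can also divide, were higher in 10 of 13 cases and lower in 1. Their summed signal was 81565 to 84280 in glia and 207500 to 217820 in progenitors. Bright genes weigh most in that sum, such as cd74a at 47929 and 49941 in glia, with a difference of 0.996. Over the leukocyte list the median difference was 1.46, from -0.31 for cybb to 3.46 for il1b. Endothelial genes were higher in 4 of 5 cases and lower in 1, with sums of 4891 to 4903 and 10629 to 10647.

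Genes of surface epithelium were lower in 9 of 9 cases, with sums of 90588 to 93741 in glia and 6800 to 6993 in progenitors. There cldne and esrp2 were not well above background in progenitors, so they were tested only because they were bright in glia. Cone genes were lower in 13 of 13 cases and erythrocyte genes in 7 of 7, with hbba2 likewise not well above background in progenitors. Cone sums were 2880000 to 2904100 in glia and 1814300 to 1865500 in progenitors, and erythrocyte sums were 308550 to 317480 and 166110 to 172750. Rod genes were lower in 3 of 4 cases and higher in 1, with sums of 783530 to 785120 and 752940 to 766320. Inner retinal neuron genes were lower in 6 of 10 and higher in 3, with sums of 863290 to 894870 and 769750 to 790880. No marker list was at 0 in either group, and the part of these cells in the MCM and pcna differences was not tested.

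**Figure D4:**
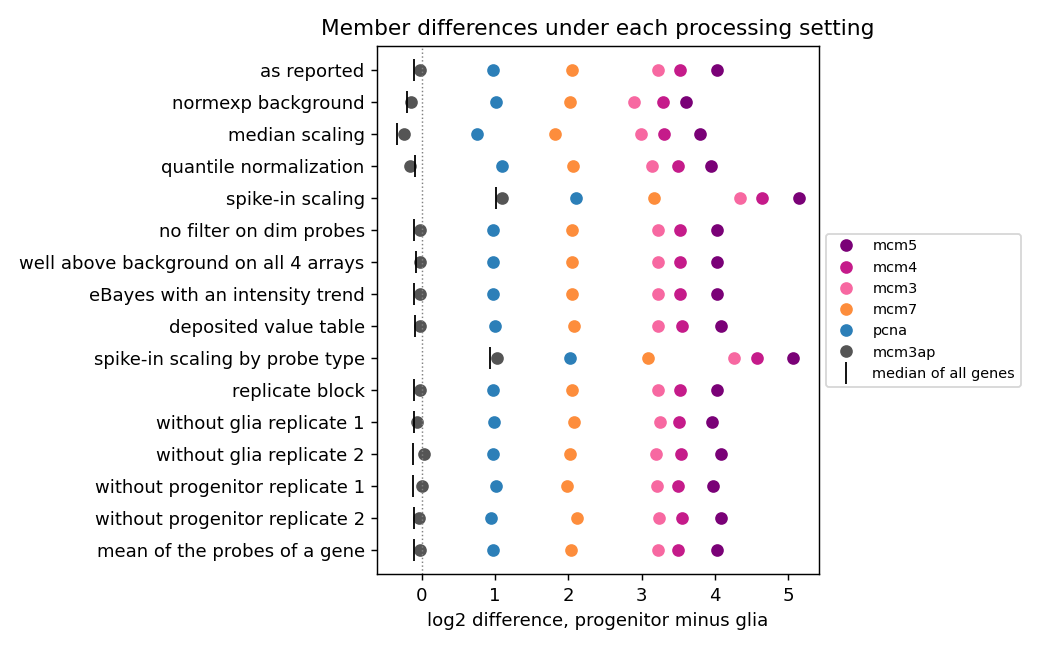
Log2 difference (progenitor minus glia) of each tested member gene under the reported processing and 15 alternatives, with the median of all genes as a black tick. Spike-in scaling moves all genes upward together, and the order from mcm5 to mcm3ap is the same in each row.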

How the data were processed

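RNA of 4 samples was measured on Agilent design 015064, 1 colour. Per the file headers, the deposited intensity was made by Feature Extraction 9.5.3.1 (the submitters' processing notes name 9.1), background-subtracted and detrended within each array, with low values replaced by a surrogate and nothing adjusted between arrays. The deposited values of the series also are intensity: 100% of the 21495 values per array equal a spot's background-subtracted signal within a relative 0.001. Their medians were 356.4, 360.1, 466.9 and 487.7, so they are linear and not centred.

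Here, signals were converted to log2, the 75th percentile over non-control spots was subtracted, and the 2 spots per probe were averaged, leaving out 1417 control spots and 0 to 23 outlier spots per array. Probes well above background on both arrays of a group were tested (16596) with limma 3.58.1 in R 4.3.3 (lmFit, eBayes, 3.92 degrees of freedom), adjusted by Benjamini-Hochberg; the files were read with the R package data.table, version 1.17.8. Alternatives were normexp (offset 50), median, quantile and spike-in scaling, filters, a trend, the deposited values, a replicate block, single arrays left out and means over probes. The fit was tested on simulated data. The probe with the highest mean stood for its gene. Of all probes 7323 were named by RefSeq accession (assembly GRCz12tu), 598 by current symbol, 2352 by an older name and 1639 by the file's name; 9583 had no name. The number of arrays limits the precision. Coordinates are danRer2, counted from 1.

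All members were named. From each replication list up to 3 called genes per direction were named by adjusted p, and others were chosen after their values were seen. Members and lists were chosen with earlier results of these data known. Some genes that these rules name are not reported here.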

Additional observations from a re-analysis of the deposited data

How the results depend on the processing

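Under all 15 alternatives mcm3, mcm4, mcm5, mcm7 and pcna were called higher, with ranges of 2.90 to 4.34, 3.29 to 4.65, 3.60 to 5.15, 1.82 to 3.17 and 0.75 to 2.10. Their largest adjusted p was 0.0158, for pcna and for mcm5. The median difference of the 6 tested member genes was 2.46 with normexp, 2.41 with median scaling, 3.75 with spike-in scaling and 3.68 with spike-in scaling by probe type, an alternative chosen after seeing the data; without single arrays it ranged from 2.59 to 2.67. Probes called higher and lower numbered 1584 and 2328 with normexp, 15477 and 340 with spike-in scaling, and 15222 and 373 by probe type; median scaling gave 9724 lower. Replication partner genes called higher numbered 20 with normexp. The mcm3ap value turned to 1.099 with spike-in scaling and 1.03 by probe type, and ranged from -0.0719 to 0.0247 without single arrays, turning without glia replicate 2. Its other probe turned to 1.08, 1.01 and, with the deposited table, 0.0641; it was called lower with median scaling (-0.26, adjusted p = 0.00865) and quantile normalization (-0.22, adjusted p = 0.0137). Spike-in controls were dimmer on the progenitor arrays (2740 and 2815, against 5161 and 5752). The cause of these shifts was not tested. With the replicate block 4155 probes were higher and 5856 lower, and pcna kept its call (adjusted p = 0.00459). Replicate numbers were not shown to pair arrays (correlation of deviations 0.06). Low signals limit mcm3l, exo1, the MCM2-like probe, the MCM-domain probe and, in glia, the first MCM6-like probe and drc2. Glia signals were also low for chaf1b (46.6 and 44.7), uhrf1 (73.5 and 73.0), cdc45 (69.3 and 97.2) and cdc7 (96.4 and 95.6). Each of these lost its call with normexp.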
